A study of Mus musculus with 2 samples.

Results

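The clustered histone genes are the genes for histones H1, H2A, H2B, H3 and H4 that lie together in large arrays in the mouse genome. They were taken as every row of the deposited gene lists whose symbol is H1f1 to H1f6, or H2ac, H2bc, H3c or H4c with a number. This rule gave 65 of 55357 genes, with 6 genes for H1, 18 for H2A, 17 for H2B, 12 for H3 and 12 for H4. Counts came from droplet single-cell libraries of T cells from mouse ileum, 1 library per label, Control or SAP. According to the design text, dendritic cells met phages from healthy or SAP mice and were then cultured with gut T cells of GF mice, so the T cells of both libraries share that origin. T cells that touched the dendritic cells were tagged with fucosyl-biotin by FucoID, a proximity reaction, and whether the sequenced cells are the tagged ones is not stated. The labels expand neither SAP nor GF, give no age, strain or number of animals, and name no further difference between the libraries.

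Histones of this class are made mainly in S phase, when new DNA has to be packed into nucleosomes. Their mRNAs normally end in a short stem-loop, bound by the protein Slbp, in place of a poly(A) tail, so a library primed with oligo-dT captures them poorly. Some of these genes also give polyadenylated transcripts, which are known from resting and differentiated cells. Replacement histones such as H3f3a, H3f3b and H2az1 lie elsewhere, carry ordinary poly(A) tails and are made throughout the cell cycle.

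After filtering, 5408 Control cells with 17851805 UMIs (unique molecular identifiers, each marking 1 captured molecule) and 4826 SAP cells with 17974150 UMIs remained, with medians of 3095.5 and 3374 UMIs per cell. Levels are UMIs per 1000000 UMIs of a set of cells (CPM), and every interval given is a 95% interval for counting error only. All 8 genes of a T cell list, which holds Cd3e, Trac and Trdc, had UMIs in both libraries, summing to 7427 CPM in Control and 6955 CPM in SAP. At least 2 UMIs of that list were found in 5268 of 5408 Control cells and 4649 of 4826 SAP cells. A small set of cells went against the label: 25 Control and 56 SAP cells with at least 2 UMIs of Folr1, a folate receptor gene, had 143 and 127 CPM of the T cell list and medians of 17284 and 29228 UMIs. The libraries shared 6 cell barcodes. With 1 library per group no difference between Control and SAP has a replicate check, and no test was made.

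The annotated ends of the transcripts are shown first, because a library primed with oligo-dT captures mRNAs without a poly(A) tail poorly. How far these ends set the counts here was not tested. For each of the 65 genes, matched by gene ID, the longest GENCODE M21 transcript was read, protein-coding where there was one. It held the histone stem-loop in 40 of them. Other transcripts of these genes were not used for their ends. Over all genes a match in any protein-coding transcript counted, a wider rule, and 48 of 21901 genes had one (0.219%). Capitals mark the 16 bases of the stem-loop on the transcript's strand, with up to 5 bases on either side. H2ac24, H3c3 and H2ac8 are shown for their large ratios between cells with and without Mki67 below, and H1f2, H2ac6 and H4c4 for their smaller ones.
H2ac24: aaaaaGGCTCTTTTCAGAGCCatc
H3c3: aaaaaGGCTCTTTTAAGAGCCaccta
H2ac8: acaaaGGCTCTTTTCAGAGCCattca
H1f2: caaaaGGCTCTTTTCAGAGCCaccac
H2ac6: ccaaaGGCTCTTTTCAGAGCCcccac
H4c4: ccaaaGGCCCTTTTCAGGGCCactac

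The stem-loops are nearly alike, but what follows them is not. The annotated H2ac24 transcript ends 3 bases after the stem-loop, that of H3c3 74 bases after it and that of H2ac8 151 bases after it. The H4c4 transcript runs on for 770 bases, that of H1f2 for 840 bases and that of H2ac6 for 2010 bases. These genes were picked by their ratios, and other genes do not follow their order. H2bc7, which ends 29 bases after the stem-loop, had 1 of 47 Control and 3 of 61 SAP UMIs in cells with Mki67. H1f5, with no match, had 92 of 182 and 46 of 151. In all, 21 of the 65 transcripts end within 100 bases of the stem-loop, 19 extend further, and 25 hold no match, some of them because the annotated model stops at the coding part. Of the 19 that extend, 12 hold AATAAA or ATTAAA, the usual poly(A) signals, after the stem-loop. The annotation behind the counts is newer than GENCODE M21, so these ends describe the reference and not each read.

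On GRCm38, 55 of the genes lie on chromosome 13 between 21715763 and 23934851 and hold 88.7% of the histone UMIs. The other 10 lie on chromosome 3 between 96219865 and 96270132. H1f2 spans chr13:23738808-23740367 on the plus strand, H2ac24 spans chr13:21833026-21833507 on the minus strand and H2ac8 spans chr13:23570517-23571220 on the minus strand. Their transcripts of 1560, 482 and 704 bases are each as long as the gene, so these genes are a single exon in the annotation. H3c3 spans chr13:23744973-23745602 on the minus strand and H4c4 spans chr13:23581598-23582735 on the plus strand. H2ac6 (chr13:23681467-23683948, minus strand) lies 251 bases from H2bc4 (chr13:23684199-23692908, plus strand), and the genes point away from each other.

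The 250 bases upstream of the start of H2ac6 (RefSeq, GRCm38.p6, chr13:23683960-23684209, minus strand) cover most of this shared gap and are printed because H2ac6 and H2bc4 were found together below. Capitals mark CCAAT boxes (CCAAT or ATTGG), the octamer (ATTTGCAT or ATGCAAAT) and a TATA box (TATAAA).
H2ac6: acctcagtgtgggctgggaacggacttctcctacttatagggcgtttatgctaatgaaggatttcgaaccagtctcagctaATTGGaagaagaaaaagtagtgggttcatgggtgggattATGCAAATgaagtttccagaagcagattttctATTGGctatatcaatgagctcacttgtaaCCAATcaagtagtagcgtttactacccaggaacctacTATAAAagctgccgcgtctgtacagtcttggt
H2ac24, the H2A gene with the most UMIs, is shown beside it (chr13:21833476-21833725, minus strand), with CCAAT boxes in capitals.
H2ac24: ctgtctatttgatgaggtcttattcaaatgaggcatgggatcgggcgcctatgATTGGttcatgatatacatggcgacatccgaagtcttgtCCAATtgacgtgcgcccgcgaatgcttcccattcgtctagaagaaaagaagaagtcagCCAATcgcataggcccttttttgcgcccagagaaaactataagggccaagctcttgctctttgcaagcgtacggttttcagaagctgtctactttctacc
Both promoters hold 3 CCAAT boxes, and H2ac24 holds neither TATAAA nor the octamer in this window.

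RefSeq promoters were found for 58 of the 65 genes, with 59 entries. The CCAAT box in either orientation was in 83.1% of them, against 33.9% of all 32851 promoters of the same length. By family it was in 6 of 6 promoters of H1, 17 of 17 of H2A, 15 of 15 of H2B, 8 of 10 of H3 and 3 of 11 of H4. TATAAA or TTTATA was in 47.5%, against 12.4%. The octamer was in 22.0%, against 1.60%, and all 13 promoters with it belong to H2A (6 of 17) or H2B (7 of 15). The AC box of H1 genes (AAACACA or TGTGTTT) was in 5 of 6 H1 promoters and in 6.25% of all promoters. Both strands were searched, none of the 4 patterns contains another, and a match describes the letters only.

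Clustered histone UMIs were scarce but most of the genes were found. They summed to 12051 UMIs (675 CPM) in Control and 11609 UMIs (646 CPM) in SAP. The 10 replacement histone genes held 105950 and 102134 UMIs. Of the 65 genes, 44 had at least 50 UMIs over both libraries, 14 had 10 to 49, and H1f6 and H2ac14 had fewer than 10. No UMI was found for H2ac1, H2ac12, H2bc1, H2bc23 or H3c14. The 10 genes with the most UMIs held 64.1% of the total. A UMI in a 3′ library marks 1 captured molecule whatever the transcript's length, so levels were not divided by length, and the order of genes is an order of captured molecules.

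**Figure D1:**
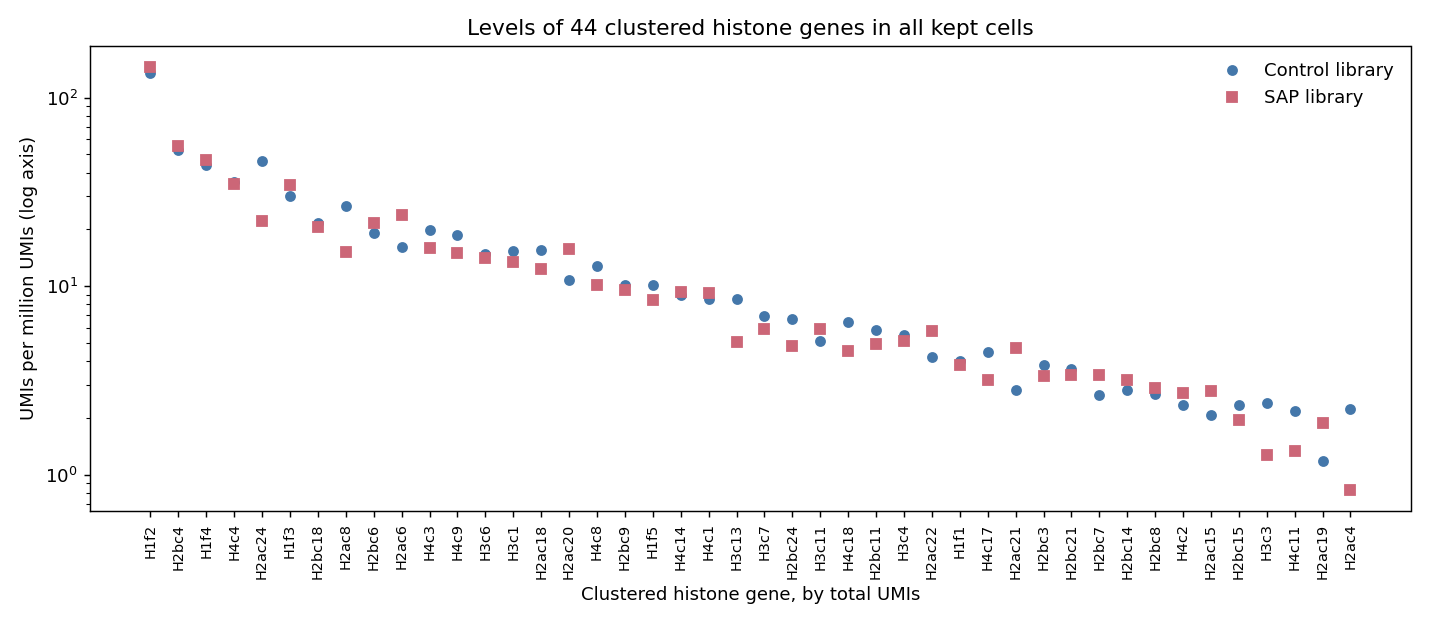
Level of each of the 44 clustered histone genes with at least 50 UMIs, in CPM on a log axis, in all kept cells of the Control library (circles) and the SAP library (squares). H1f2 stands highest at 135 and 145 CPM, and the points of the libraries lie close together for most genes, with H2ac24, H2ac8 and H2ac4 among those that lie apart.

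Among the linker histones, which bind the DNA between nucleosomes, H1f2 had the most UMIs of all 65 genes, 2405 in Control (135 CPM) and 2609 in SAP (145 CPM). H1f4 was at 43.9 and 46.9 CPM, H1f3 at 30.1 and 34.4 CPM, H1f5 at 10.2 and 8.40 CPM and H1f1 at 4.03 and 3.84 CPM. The H1 genes together held 33.1% of the histone UMIs in Control and 37.0% in SAP. The last bases of H1f4 overlap H2bc6 by 496 bases on the same strand, so reads there could count for either gene or for none.

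The H2A genes, whose products pair with H2B in the nucleosome core, differed most between the libraries. H2ac24 was at 45.8 CPM in Control (818 UMIs) and 22.2 CPM in SAP (399 UMIs), and H2ac8 at 26.6 and 15.1 CPM. H2ac6 ran the other way, with 16.1 CPM (288 UMIs) and 24 CPM (431 UMIs). The remaining H2A genes with at least 50 UMIs, Control first, were H2ac18 (15.6 and 12.4 CPM), H2ac20 (10.8 and 15.7), H2ac22 (4.20 and 5.79), H2ac21 (2.80 and 4.67), H2ac15 (2.07 and 2.78), H2ac4 (2.24 and 0.835) and H2ac19 (1.18 and 1.89). Copies matter here: every 90-base window in the last 300 bases of H2ac24, H2ac18 and H2ac19 is shared with another gene of the set, so their counts are uncertain. This holds for 10 of the 65 genes, with 19% of the histone UMIs, while 22 genes with 63.3% of the UMIs share no such window.

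H2B was led by H2bc4, at 52.5 and 55.1 CPM (937 and 990 UMIs). H2bc18 (21.7 and 20.7 CPM), H2bc6 (19.1 and 21.5), H2bc9 (10.2 and 9.57), H2bc24 (6.67 and 4.84) and H2bc11 (5.83 and 4.95) followed. The other H2B genes with at least 50 UMIs were H2bc3 (3.81 and 3.34 CPM), H2bc21 (3.64 and 3.39), H2bc7 (2.63 and 3.39), H2bc14 (2.80 and 3.17), H2bc8 (2.69 and 2.89) and H2bc15 (2.35 and 1.95). The spans of H2bc4 (8710 bases) and H2bc6 (37455 bases) are longer than their transcripts of 1156 and 2506 bases, which are spliced forms.

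H3 genes were low, with H3c6 (14.9 and 14.1 CPM) and H3c1 (15.3 and 13.5) ahead of H3c13 (8.51 and 5.06), H3c7 (6.95 and 5.90), H3c11 (5.10 and 5.90), H3c4 (5.49 and 5.12) and H3c3 (2.41 and 1.28). H3c6 and H3c7 share all windows of their last bases with other genes of the set. H4 was led by H4c4 at 35.6 and 34.9 CPM. H4c3 (19.9 and 16 CPM), H4c9 (18.6 and 15.0), H4c8 (12.8 and 10.2), H4c14 (8.96 and 9.35), H4c1 (8.51 and 9.18), H4c18 (6.44 and 4.51), H4c17 (4.48 and 3.17), H4c2 (2.35 and 2.73) and H4c11 (2.18 and 1.34) made up the rest with at least 50 UMIs.

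Cells with at least 1 UMI of Mki67, a marker of proliferating cells, numbered 136 of 5408 in Control and 131 of 4826 in SAP. In Control their histone level was 2464 CPM against 598 CPM in cells without Mki67, a ratio of 4.12 (3.91 to 4.33). In SAP it was 1248 CPM against 619 CPM, a ratio of 2.02 (1.88 to 2.15). The ratio was above 1 in both libraries. Its intervals do not meet, but they leave out the spread between cells. The 10 highest cells held 69.7% and 54.9% of the histone UMIs of cells with Mki67. Of 52 histone genes with at least 10 UMIs in each library, 19 (36.5%) were at least 2-fold higher in both libraries, against 2.94% of 14665 genes with that many UMIs. The limit counted cells with and without Mki67 together, so some genes passed it only through cells with Mki67. Among these were H2ac4, with 7 and 8 UMIs in cells without Mki67, and H2ac11, with 7 and 9. The shares are therefore a description only. Another 4 of the 52 (7.69%) were at least 2-fold lower in both, against 7.04% of all. The 4 are H2ac19, H2ac21, H2bc13 and H4c6, each with 0 or 1 UMI in cells with Mki67, and those under 50 UMIs were named after their values were seen. The median log2 ratio over the 52 genes was 1.32 in Control and 0.87 in SAP, against -0.10 and -0.04 over all genes compared. Cells with Mki67 were deeper, with medians of 4120 and 4333 UMIs against 3076 and 3353, and levels are scaled to the UMIs of each set.

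**Figure D2:**
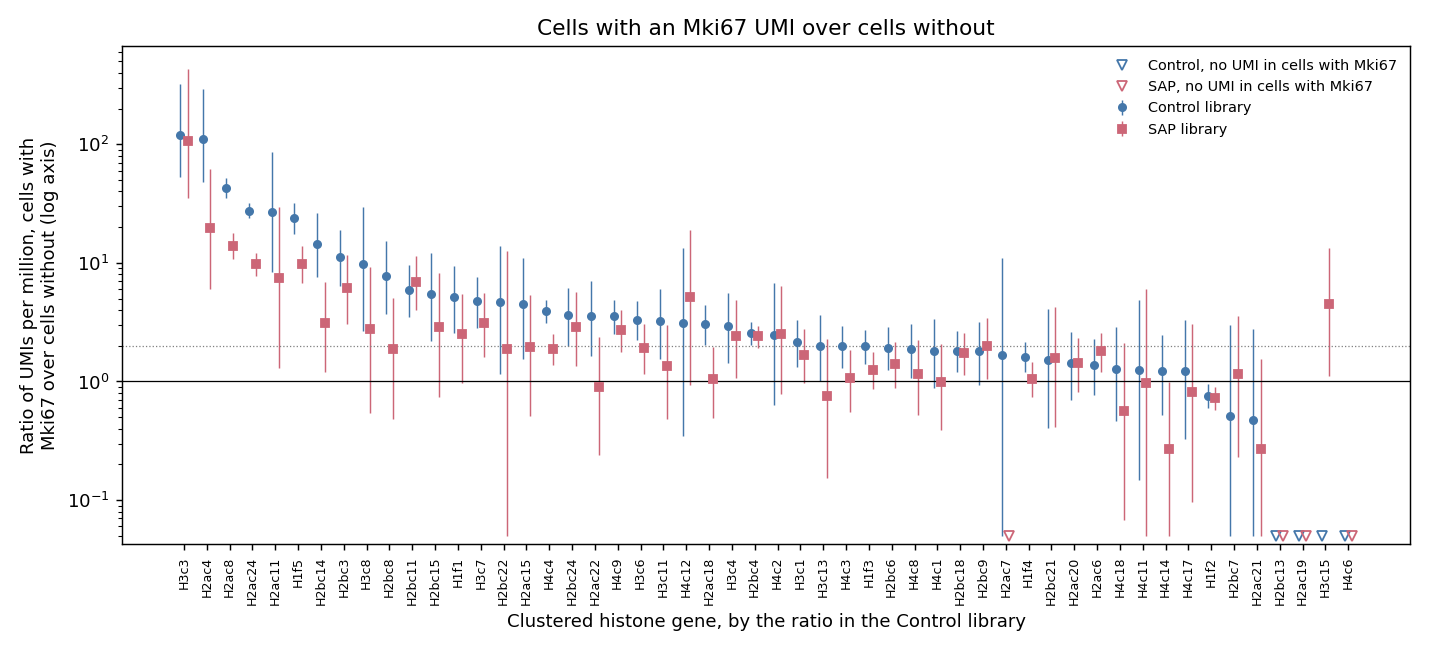
Ratio of CPM in cells with an Mki67 UMI over cells without, on a log axis, for the 52 clustered histone genes with at least 10 UMIs in each library, with 95% counting intervals for Control (circles) and SAP (squares). Triangles at the foot mark genes with no UMI in cells with Mki67, bars are cut at the lower edge, the solid line marks 1 and the dotted line 2. H3c3, H2ac4 and H2ac8 stand highest, H2ac24 and H1f5 are near 10 in SAP, and H1f2 lies below 1 in both libraries.

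High ratios were found for H3c3, several H2A genes and, below, H1f5. H3c3 had 36 of its 43 Control UMIs and 19 of its 23 SAP UMIs in cells with Mki67, for ratios of 120 (52.7 to 320) and 106 (35.3 to 429). H2ac4 had 33 of 40 and 7 of 15, and H2ac10 had 9 of 9 and 5 of 6. H3c2 had 11 of 12 in Control and 1 of 7 in SAP. H2ac10 and H3c2 were named after their values were seen, and such counts are small. H2ac8 was at 417 CPM in Control cells with Mki67 against 9.81 CPM without, a ratio of 42.5 (35.1 to 51.6), and in SAP at 135 against 9.77 CPM, a ratio of 13.8 (10.7 to 17.8). H2ac24 was at 604 against 21.9 CPM in Control, a ratio of 27.6 (24 to 31.7), and at 157 against 16.2 CPM in SAP, a ratio of 9.72 (7.79 to 12.1). Outside the cells with Mki67 the levels of H2ac8 were nearly equal in the libraries, and inside them Control was higher.

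Families differed in the size of the ratio. H2A had ratios of 14.1 (12.9 to 15.3) in Control and 4.23 (3.73 to 4.78) in SAP, the highest of the 5 families in both. H3 followed with 4.02 (3.38 to 4.75) and 2.41 (1.93 to 2.98), and H2B with 2.92 (2.57 to 3.32) and 2.28 (1.98 to 2.62). H4 had 2.59 (2.24 to 2.99) and 1.5 (1.24 to 1.80), and H1 had 1.73 (1.52 to 1.96) and 1.13 (0.979 to 1.30). Within H1, H1f5 stood at 23.9 (17.6 to 32.3) and 9.78 (6.76 to 14.0), while H1f2 stood at 0.762 (0.598 to 0.957) and 0.725 (0.574 to 0.903). H1f2, with 104 and 106 CPM in cells with Mki67 and 136 and 147 CPM in the others, had intervals below 1 in both libraries. In T cells only, the SAP ratio of H1f2 was 0.910 (0.714 to 1.15). H1f4 had 1.62 (1.20 to 2.16) and 1.05 (0.740 to 1.46), and H1f3 had 1.98 (1.41 to 2.71) and 1.26 (0.858 to 1.79).

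H2B and H4 genes lay between these. H2bc4, at 125 CPM in cells with Mki67 of either library, had ratios of 2.54 (2.03 to 3.15) and 2.40 (1.92 to 2.96). H2bc11 had 5.91 (3.47 to 9.62) and 6.90 (4.01 to 11.4), and H2bc3 had 11.2 (6.40 to 18.9) and 6.18 (3.07 to 11.6). H4c4 had 3.90 (3.09 to 4.87) and 1.89 (1.38 to 2.53), and H4c9 had 3.57 (2.54 to 4.91) and 2.70 (1.77 to 3.98). H2ac6 had 1.37 (0.774 to 2.27) in Control, with an interval across 1, and 1.79 (1.21 to 2.57) in SAP, with an interval above 1.

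Grouped by their annotated end, genes ending within 100 bases of the stem-loop had a summed ratio of 9.18 (8.40 to 10.0) in Control and 3.46 (3.02 to 3.95) in SAP. Genes extending past it had 2.88 (2.67 to 3.11) and 1.55 (1.41 to 1.71), and those with no match 3.55 (3.15 to 3.99) and 2.34 (2.04 to 2.68). Part of the contrast rests on H2ac24 and H2ac8, each the gene with the most Mki67-cell UMIs of its class. Without H2ac24 the near-ending genes had 4.27 (3.73 to 4.88) and 2.20 (1.83 to 2.62), and without H2ac8 the extending genes had 1.80 (1.64 to 1.98) and 1.24 (1.11 to 1.38). By gene, 13 of 21 near-ending, 7 of 17 extending and 13 of 18 no-match genes were at least 2-fold higher in Control. In SAP these counts were 8 of 18, 5 of 17 and 7 of 17, among genes with at least 10 UMIs in the library. Among cells with no UMI of any of 24 cycle genes, called non-cycling here, the extending genes held 63.0% of the histone UMIs in Control and 65.9% in SAP. H1f2 alone held 1824 of the 4756 UMIs of the extending genes there in Control and 1810 of 4773 in SAP. It was not left out of the class ratios, and its part in them was not tested. The median non-cycling cell held 1 histone UMI and the highest held 39 in Control and 38 in SAP. At least 20 were held by 5 Control and 12 SAP cells, and whether these cells were dividing was not tested.

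Within the cells with Mki67, histone UMIs were concentrated in few cells. The median cell with Mki67 held 2 histone UMIs in each library, and 40 of 136 Control and 25 of 131 SAP cells held none. The highest cell held 359 in Control and 125 in SAP, and the 10 highest cells held 69.7% and 54.9% of the histone UMIs of these sets. Rrm2 encodes a subunit of ribonucleotide reductase, the S phase enzyme of nucleotide supply. Of the cells with at least 20 histone UMIs, 15 of 18 in Control and 10 of 11 in SAP had an Rrm2 UMI, against 27 of 136 and 21 of 131 of all cells with Mki67.

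**Figure D3:**
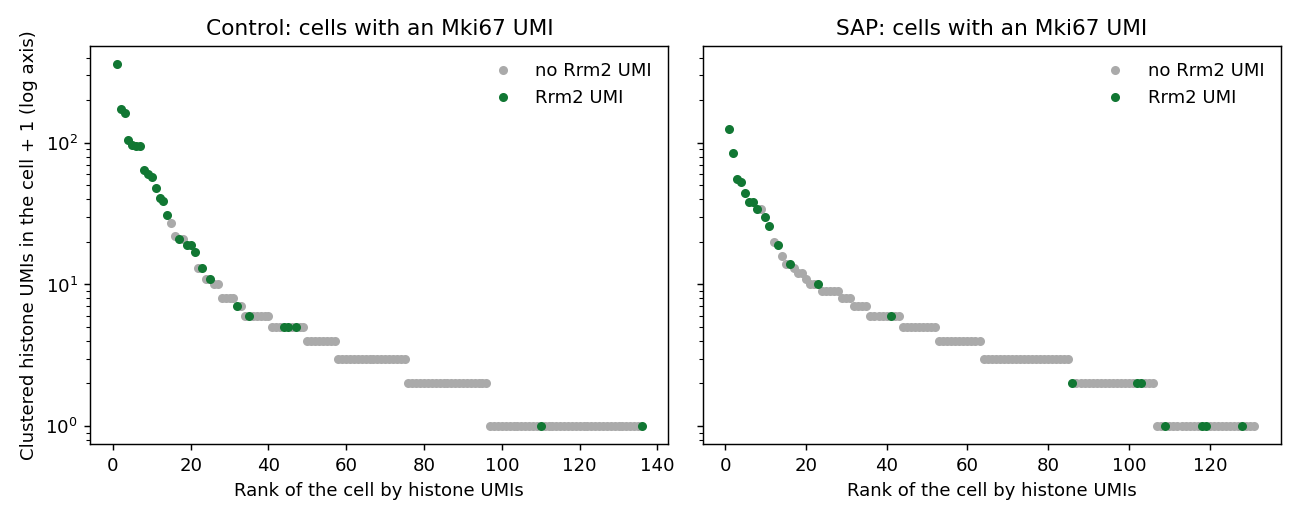
Clustered histone UMIs plus 1, on a log axis, in each cell with an Mki67 UMI, ranked within the Control library (136 cells) and the SAP library (131 cells). Green points are cells with an Rrm2 UMI, which make up nearly all of the cells at the top left.

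Split by Rrm2, the cells with Mki67 differed in their summed histone level, but not cell by cell throughout. The median cell held 30 histone UMIs with Rrm2 and 1 without in Control, and 18 with and 2 without in SAP. Of the cells with Rrm2, 2 of 27 in Control and 7 of 21 in SAP held 0 or 1 histone UMI. In Control, histone genes stood at 5768 CPM with Rrm2 and 590 CPM without, a ratio of 9.78 (8.60 to 11.2). In SAP they stood at 3092 and 670 CPM, a ratio of 4.61 (4.05 to 5.26). Non-cycling cells stood at 597 and 630 CPM, close to the cells with Mki67 and no Rrm2. Of 13 histone genes with at least 20 UMIs in each library, 10 (76.9%) were at least 2-fold higher with Rrm2 in both, against 3.92% of 4154 genes, and none was as much lower, against 3.01%. The limit counted cells with and without Rrm2 together, so a gene could pass it through the cells with Rrm2 alone. These shares are therefore a description only. H2ac8 had 1134 against 10.7 CPM in Control and 528 against 11.9 CPM in SAP, and H2ac24 had 1624 against 25.6 CPM and 544 against 35.8 CPM. H1f2 had 79.1 against 118 CPM and 103 against 107 CPM, with intervals of the ratio from 0.387 to 1.13 and from 0.544 to 1.63. H2bc4 differed between the libraries, with 256 against 51.3 CPM in Control and 158 against 114 CPM in SAP. Cells with Rrm2 had medians of 8833 and 7288 UMIs against 3676 and 4082 without, and the part of depth in choosing them was not tested.

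Genes for other histones and for histone handling varied. Of 10 replacement histone genes, 9 had enough UMIs. Their ratios in cells with Mki67 over those without ran from 0.193 to 4.49 in Control and from 0.816 to 2.28 in SAP. H2ax had ratios of 2.42 (1.90 to 3.04) and 2.28 (1.78 to 2.88), and H2az1 1.49 (1.41 to 1.58) and 1.57 (1.48 to 1.67). H3f3a had 1.32 (1.22 to 1.43) and 1.20 (1.11 to 1.30), and H3f3b 0.899 (0.859 to 0.940) and 0.907 (0.867 to 0.948). Of 12 chaperone genes, whose products carry histones to DNA, 5 in Control and 4 in SAP were at least 2-fold higher, led by Asf1b at 21.8 (13.9 to 34.1) and 9.89 (6.26 to 15.3) and including Chaf1a at 7.78 and 2.45. None of 10 genes for histone mRNA processing reached 2-fold in either library. Slbp, the stem-loop binding protein, had 1.26 (1.05 to 1.49) and 1.20 (1.01 to 1.43), and Npat, an activator of histone genes, had 1.08 (0.585 to 1.84) and 1.14 (0.628 to 1.90).

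Between the libraries, SAP over Control was 0.957 (0.933 to 0.982) for the summed histone genes in all kept cells. It was 0.506 (0.468 to 0.548) in cells with Mki67 and 1.06 (1.02 to 1.09) in non-cycling cells, which numbered 4208 in Control and 3631 in SAP. Cells with at least 20 histone UMIs, 5 in Control and 12 in SAP, were left in the non-cycling sets, and their part in the ratio was not tested. A plasma cell list of 5 genes, with Mzb1 at 0, was higher in Control, with 1208 against 113 CPM over kept cells and 773 against 130 CPM in non-cycling cells, and its part in these ratios was not tested. In cells with Mki67 the ratio was 0.607 (0.547 to 0.674) once the 5 highest cells of each library were left out. The 6 genes of an epithelial list stood at 92.7 CPM in Control cells with Mki67 and 312 CPM in SAP ones, with Krt19 at 0 in both, and the T cell list at 7442 and 6482 CPM, and their part in the ratio was not tested. With DESeq2 median-of-ratios factors the non-cycling ratio was 0.983, on the other side of 1. Over all kept cells 6 of 44 histone genes (13.6%) were at least 1.5-fold lower in SAP, against 1.26% of 12828 genes, and 2 of 44 (4.55%) were at least 1.5-fold higher, against 10.9%. In non-cycling cells 1 of 36 was lower (1.13% of all genes) and none of 36 was higher (3.85% of all genes). The one lower gene was H4c17, at 0.625 (0.382 to 1.01).

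**Figure D4:**
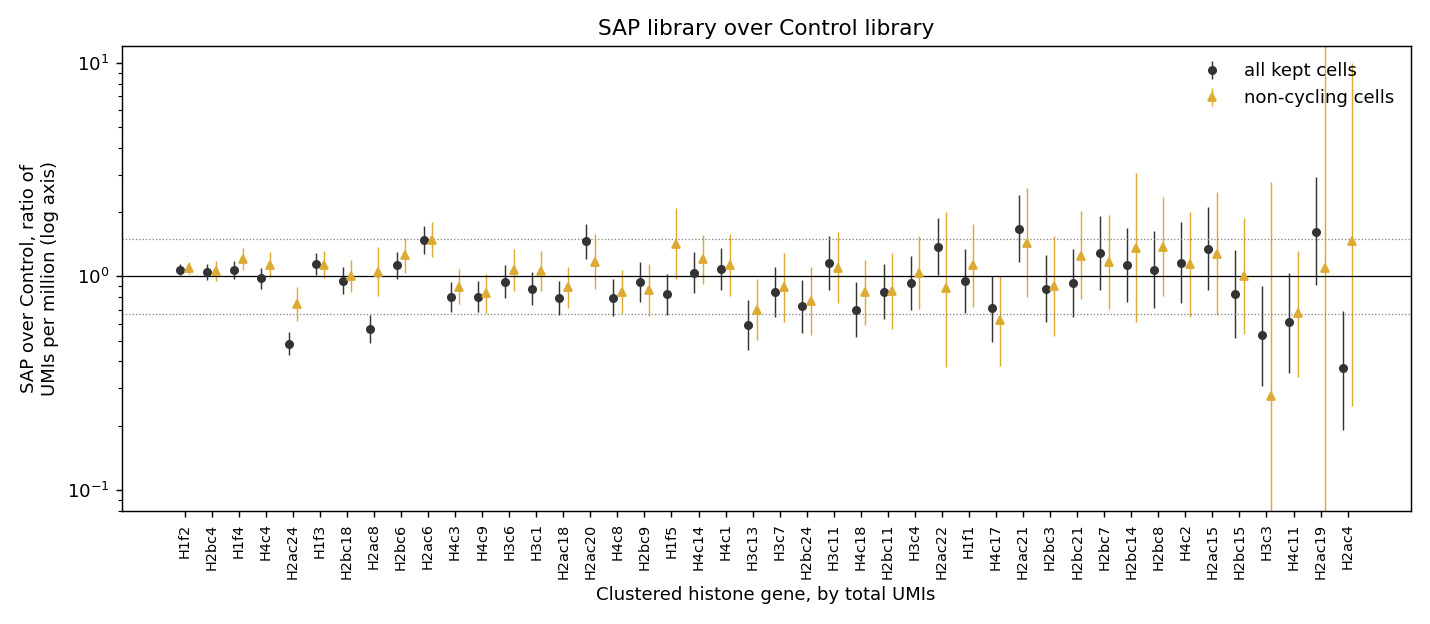
SAP over Control ratio of CPM, on a log axis, for the 44 clustered histone genes with at least 50 UMIs, in all kept cells (circles) and in non-cycling cells (triangles), with 95% counting intervals cut at the edges of the plot. The dotted lines mark 1.5-fold. H2ac24, H2ac8, H3c3 and H2ac4 lie below the lower line in all kept cells, and H2ac6 lies near the upper line in both sets.

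The 6 lower genes were mostly those with the highest Mki67 ratios. H2ac24 was at 22.2 CPM in SAP and 45.8 in Control, a ratio of 0.484 (0.429 to 0.547), and H2ac8 at 15.1 and 26.6 CPM, a ratio of 0.570 (0.489 to 0.663). H2ac4 had 0.372 (0.191 to 0.689) and H3c3 had 0.531 (0.306 to 0.901). H3c13 had 0.595 (0.453 to 0.776) and H4c11 had 0.611 (0.352 to 1.04), whose interval reaches 1. In non-cycling cells H2ac8 was at 10.2 CPM in SAP and 9.64 in Control, a ratio of 1.05 (0.811 to 1.37). H2ac24 was at 17.5 and 23.5 CPM there, a ratio of 0.744 (0.619 to 0.893), so it remained lower in SAP. In cells with Mki67, H2ac24 was at 157 CPM in SAP and 604 in Control, a ratio of 0.260 (0.211 to 0.319).

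H2ac6 had the highest SAP over Control ratio of the 36 histone genes compared in non-cycling cells, just under the 1.5-fold limit. Its difference between the libraries was known from earlier results of these data when it was chosen, so its value and rank are a description only. It had 22.9 CPM (264 UMIs) in SAP non-cycling cells and 15.4 CPM (195 UMIs) in Control, a ratio of 1.49 (1.23 to 1.80), and 1.49 (1.28 to 1.73) in all kept cells. Non-cycling cells with at least 20 histone UMIs were left in here too, and their part was not tested. Over the alternatives tried the non-cycling ratio ran from 1.39 to 1.53. H1f4 had 1.21 (1.07 to 1.36) in non-cycling cells, H2bc6 1.25 (1.04 to 1.51), H1f2 1.09 (1.02 to 1.16) and H2bc4 1.06 (0.953 to 1.18). The H1 family as a whole had 1.12 (1.07 to 1.19) there and the other 4 families between 0.974 and 1.05.

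The 2 genes at least 1.5-fold higher in SAP over all kept cells, H2ac19 (1.61, 0.907 to 2.92) and H2ac21 (1.67, 1.16 to 2.42), had many of their UMIs in the Folr1 cells, which were looked at after the values had been seen. The epithelial list stood at 2003 and 1820 CPM in these cells. Of the H2ac19 UMIs, 20 of 21 in Control and 34 of 34 in SAP were in these cells, and of the H2ac21 UMIs 19 of 50 and 52 of 84. H2ac22 had 44 of 75 and 83 of 104 UMIs there, and H2ac20 61 of 192 and 140 of 282. H2ac22 stood at 78.9 and 56.2 CPM in Folr1 cells against 1.75 and 1.22 CPM in T cells, here the 5257 and 4622 other cells with at least 2 UMIs of the T cell list, ratios of 45.2 (27.8 to 74.5) and 46.0 (28.0 to 79.1). H2ac24 had no UMI in Folr1 cells of either library, and H2bc4 had 0 and 3. Of 44 histone genes with enough UMIs, 10 (22.7%) were at least 2-fold higher in Folr1 cells than in T cells in both libraries, against 17% of all genes, and 20 (45.5%) were at least 2-fold lower, against 56.1%. The limit, 20 UMIs in each library, counted Folr1 cells and T cells together. H2ac19, 1 of the 10, had no UMI in these T cells and passed it only through Folr1 cells. Without the Folr1 cells the SAP over Control ratio of H2ac21 was 1.08 (0.639 to 1.83), that of H2ac20 was 1.14 (0.890 to 1.45) and that of H2ac6 was 1.55 (1.33 to 1.81). H2ac6 was then the 1 of 43 histone genes at least 1.5-fold higher in SAP, against 3.39% of all genes, and 7 were lower, against 1.36%.

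Gates on 1 receptor gene each were set in non-cycling cells, requiring no UMI of the other 2 genes. Trdc, the constant region of the delta chain of gamma delta T cells, gave 1771 Control and 1509 SAP cells. Cd8b1, the CD8 beta chain, gave 393 and 391 cells, and Cd4 gave 167 and 157. Summed histone levels were 606, 594 and 591 CPM in the Trdc, Cd8b1 and Cd4 gates of Control and 662, 626 and 532 CPM in those of SAP. Trdc over Cd8b1 was 1.02 (0.941 to 1.11) and 1.06 (0.980 to 1.14), with both intervals across 1. Cd4 over Cd8b1 was 0.994 (0.870 to 1.13) in Control and 0.849 (0.739 to 0.974) in SAP, and with gates of at least 2 UMIs it was 1.27 and 1.10. Over all cells of the gates, those with cycle genes included, the levels were 628, 599 and 1018 CPM in Control and 670, 707 and 643 CPM in SAP. The non-cycling Control Cd4 gate held 14077 CPM of 5 plasma cell genes, against 121 CPM in SAP, with Mzb1 at 0 in both, and their part in its histone level was not tested.

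Few single genes differed between the gates in both libraries. Of 30 histone genes with at least 20 UMIs in each library, 2 (6.67%) were at least 1.5-fold higher in Trdc than in Cd8b1 cells in both libraries, against 10.3% of all genes, and none was lower, against 2.3%. The 2 were H2ac8, at 11.3 against 6.48 CPM in Control and 11.9 against 4.59 CPM in SAP, and H4c8, at 14.8 against 8.92 and 13.9 against 6.88 CPM. These genes had fewer than 20 UMIs in the Cd8b1 gate of each library, since the limit counted both gates together. The median log2 ratio was -0.01 and -0.11 over the histone genes and 0.16 and 0.14 over all genes. H1f4 was at 44.6 against 33.2 CPM in Control, a ratio of 1.34 (0.963 to 1.92), and at 58.1 against 32.1 CPM in SAP, a ratio of 1.81 (1.31 to 2.56). Between Cd4 and Cd8b1 none of 13 genes was 1.5-fold apart in both libraries in either direction, against 4.41% of all genes higher and 5.28% lower. H1f2 was lower in the Cd4 gate, at 114 against 154 CPM in Control, a ratio of 0.739 (0.548 to 0.986), and at 104 against 159 CPM in SAP, a ratio of 0.652 (0.475 to 0.882). H4c9 stood at 3.39 (1.93 to 6.09) in Control and 1.35 (0.607 to 2.84) in SAP. Mki67 was found in 2.33% and 2.23% of all Trdc cells, 4.07% and 3.65% of Cd8b1 cells and 4.70% and 6.25% of Cd4 cells, Control first.

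H2ac6 was found in every gate. In Control it stood at 16.5 CPM in Trdc, 13.8 CPM in Cd8b1 and 3.56 CPM in Cd4 cells, and in SAP at 25.8, 22.9 and 17.0 CPM. Trdc over Cd8b1 was 1.20 (0.710 to 2.14) and 1.12 (0.753 to 1.73). Cd4 over Cd8b1 rested on 2 and 9 H2ac6 UMIs in the Cd4 gate, with ratios of 0.258 (0.0289 to 1.09) and 0.740 (0.309 to 1.60). Of the 9 SAP UMIs, 7 were in 1 cell, and without the cell with the most UMIs in each gate the SAP ratio was 0.184. SAP over Control was 1.56 (1.19 to 2.05) in the Trdc gate, 1.66 (0.889 to 3.22) in the Cd8b1 gate and 1.18 (0.860 to 1.63) in cells with none of the 3 genes.

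Non-cycling cells holding H2ac6 were few. There were 152 of 4208 in Control (3.61%, 3.07% to 4.22%) and 171 of 3631 in SAP (4.71%, 4.04% to 5.45%), with Clopper-Pearson intervals. Thinned to 1000 UMIs per cell, which left out 463 and 448 shallower cells, the shares were 1.68% (1.30% to 2.15%) and 2.23% (1.75% to 2.81%), with overlapping intervals. Most of them had 1 H2ac6 UMI, 119 of 152 and 122 of 171, and the highest had 4 and 10. Cells with no UMI of the T cell list, at medians of 708 and 771.5 UMIs, held H2ac6 in 0 of 57 and 1 of 74, and a count of 0 of 57 allows a share of cells with an H2ac6 UMI of up to 5.26% (3 counts of 57) at that depth, which does not limit the share of cells expressing it. Free RNA in the droplets can add UMIs, and no cell type known to lack H2ac6 was at hand to set that level.

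Cells holding H2ac6 also held more of several other histone genes. The UMIs found were set against those expected from cells without H2ac6 in the same 10 depth bins, leaving out H2ac6 itself. Non-cycling cells with at least 20 histone UMIs were not left out, and their part in the ratios was not tested. Of 26 histone genes with at least 50 UMIs in each library, 10 (38.5%) were at least 1.5-fold higher in both, against 4.1% of 9372 genes, and 2 (7.69%) were lower, against 3.93%. The median log2 ratio was 0.93 in Control and 0.56 in SAP, against -0.05 and -0.02 over all genes compared.

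H2B genes led this set. H2bc9 had 23 UMIs against 3.76 expected in Control, a ratio of 6.12 (3.70 to 9.73), and 15 against 4.42 in SAP, a ratio of 3.40 (1.81 to 5.95). H2bc18 had 3.83 (2.61 to 5.48) and 3.20 (2.19 to 4.55), and H2bc6 3.05 (1.92 to 4.63) and 5.30 (3.88 to 7.14). H2bc4, across the shared gap from H2ac6, had 52 against 26.2 expected and 69 against 35.3, ratios of 1.98 (1.46 to 2.63) and 1.95 (1.5 to 2.51). The nearest gene did not have the highest ratio. H2bc9 (chr13:23541714-23543392) and H2bc6 (chr13:23583670-23621124) lie on the same chromosome as H2ac6, and H2bc18 lies on chromosome 3. The part of position in these ratios was not tested.

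Of the other families, H2ac24 had 1.91 (1.18 to 2.96) and 2.25 (1.39 to 3.48), H3c6 2.02 (1.02 to 3.63) and 3.14 (1.92 to 4.90), H3c7 2.71 (1.05 to 5.93) and 2.89 (1.18 to 6.17), and H4c3 2.32 (1.42 to 3.59) and 1.85 (1.10 to 2.94). H1f2, the gene with the most UMIs, had 1.13 (0.896 to 1.41) and 1.08 (0.879 to 1.31), and H4c4 had 1.42 (0.899 to 2.15) and 1.28 (0.85 to 1.85). The genes at least 1.5-fold lower were H2bc24 and H3c13, each on 1 or 2 UMIs per library, with intervals that include 1. H1f3 stood at 3.05 (2.15 to 4.23) in Control and 1.49 (0.991 to 2.17) in SAP, and H3c4 at 6.66 (3.20 to 12.8) and 0.998 (0.199 to 3.09).

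**Figure D5:**
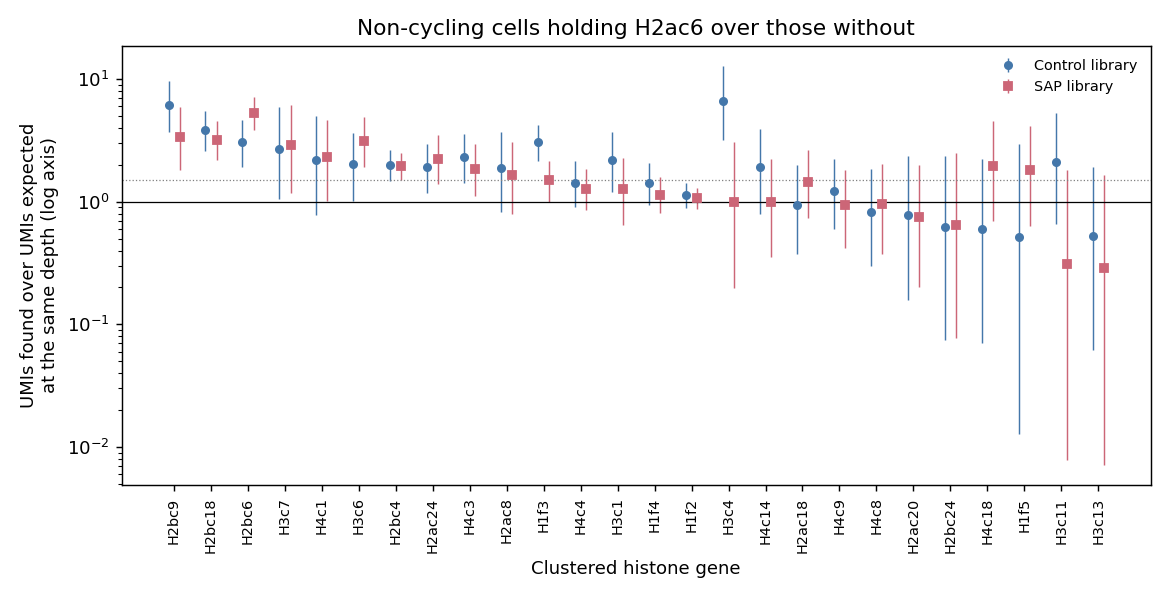
UMIs found over UMIs expected at the same depth in non-cycling cells holding H2ac6, on a log axis, for 26 clustered histone genes in Control (circles) and SAP (squares), with 95% counting intervals. The solid line marks 1 and the dotted line 1.5. H2bc9, H2bc18 and H2bc6 lie well above 1.5 in both libraries, H3c4 is high in Control and near 1 in SAP, and H1f2 lies near 1.

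Beyond the histones, 384 of the 9372 genes were at least 1.5-fold higher and 92 of these had intervals above 1 in both libraries. Among the highest by the smaller of the 2 ratios was Rpph1, the RNA of ribonuclease P, at 5.70 (3.50 to 8.94) and 5.03 (3.21 to 7.63). Sox4, a transcription factor, had 3.64 (1.48 to 7.81) and 4.74 (2.65 to 8.07), Caprin2 3.20 (2.0 to 4.91) and 6.64 (4.8 to 9.08), and Cgas, a sensor of cytosolic DNA, 3.76 (1.79 to 7.13) and 3.20 (1.51 to 6.14). The histone genes H2bc9, H2bc18 and H2bc6 were also among the 8 highest. On the lower side 68 genes had both intervals below 1, among them Il18r1, a receptor chain for interleukin-18, at 0.0931 (0.00235 to 0.524) and 0.215 (0.0441 to 0.637), and Tnfrsf4, at 0.223 (0.0456 to 0.657) and 0.0805 (0.00203 to 0.453). Dcaf12 stood at 0.279 and 0.274, and Il10 had no UMI against 3.98 and 3.82 expected. The T cell list stood at 8383 and 8319 CPM in the holding cells and at 7685 and 7489 CPM in the others. The plasma cell list stood at 115 and 119 CPM in the holding cells and at 801 and 130 CPM in the others, with Mzb1 at 0 in each, and its part in the ratios was not tested.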

How the data were processed

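The authors deposited raw counts, UMIs per gene and barcode, as 1 matrix per library. Per the file headers, Cell Ranger 7.1.0 made them. Genome build mm10 and Seurat appear in the submitters' processing notes, without a role. Neither the annotation version nor any cell filter is given in the sources used here. Barcodes with at least 500 UMIs, 300 genes and at most 10% mitochondrial UMIs were kept. Scrublet's automatic threshold (scanpy 1.11.5) marked 1 barcode per library, so the top scores were removed up to 0.8% per 1000 barcodes, 257 (4.54%) in Control and 202 (4.02%) in SAP.

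UMIs were summed per set of cells and scaled to 1000000. Ratios carry exact conditional binomial 95% intervals (scipy 1.17.1) and shares Clopper-Pearson intervals. They were tested on simulated independent counts, where they hold by construction, so this does not check them on counts gathered in few cells. They cover counting error only, since UMIs of 1 cell are not independent. No model was fitted; edgeR 4.0.16 and DESeq2 1.42.0 gave scaling factors for alternatives. The genes, lists and rules were chosen with earlier results of these data known. Histone genes with at least 50 UMIs were named. In cells holding H2ac6, the 8 highest and 4 lowest genes were named by the smaller of the 2 ratios among those 1.5-fold apart with both intervals excluding 1, without mt-, Rpl, Rps, Gm and Rik genes. Of these genes, 1 is not reported here. Of 11 listed processing genes, 10 matched the gene lists. Sequences came from GENCODE M21 and RefSeq (GRCm38).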

Additional observations from a re-analysis of the deposited data

How the results depend on the processing

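No paired analysis was possible because each group has 1 library. Ratios of cells with Mki67 over those without, Control then SAP, were 3.43 and 2.27 in T cells only, 3.82 and 1.86 with TMM factors, 3.85 and 1.87 with median-of-ratios factors, 6.32 and 4.20 with at least 2 Mki67 UMIs, 3.45 and 1.79 without the 1 cell of each set with the most UMIs, and in SAP 2.19 without the Folr1 cells, a setting chosen after seeing the data. The Rrm2 ratio in Control was 7.90 in T cells only, and with at least 2 Mki67 UMIs it was 7.66 in Control and 5.46 in SAP. SAP over Control in all kept cells was 0.988 in T cells only, 0.891 with TMM and 0.904 with median-of-ratios factors, and in non-cycling cells 1.0 with TMM and 0.983, the other side of 1, with median-of-ratios factors. The 8 genes 1.5-fold apart became 5 in T cells only and 19 with no minimum of UMIs. In gates of at least 2 UMIs Cd4 over Cd8b1 was 1.27 in Control and, reversed, 1.10 in SAP, where Trdc over Cd8b1 was 1.16 and the H2ac6 ratio of Cd4 over Cd8b1 was 1.62. That last ratio was 0.184 without the 1 cell with the most UMIs, and Trdc over Cd8b1 in SAP was 0.974 when scaled without mitochondrial and ribosomal protein genes. H2ac6 shares were 2.53% and 3.31% when thinned to 2000 UMIs and 3.61% and 4.71% unthinned. The 384 genes higher in cells holding H2ac6 became 934 when only Mki67 had to be at 0, 634 with at least 20 UMIs and 218 with at least 100. The cause was not tested for the scaling, T cell, gate and single-cell settings, and the UMI minimums and thinning change the counts by their construction. With at least 2 Mki67 UMIs the SAP ratios of single genes were 42.7 for H2ac8, 27.7 for H2ac24, 27.5 for H1f5 and 0.966 for H1f2, and the Control ratios 73.1 for H2ac8, 46.1 for H2ac24 and 39.5 for H1f5. In T cells only H1f2 in SAP was at 0.910 (0.714 to 1.15), with an interval across 1, as with at least 2 Mki67 UMIs (0.663 to 1.36). In all, 21 single-gene values moved and 175 did not. The other 188 values of summed levels and counts under an alternative stayed within the main interval or within 1.5 times of the main count. Depth limits the Cd4 gate, the genes under 50 UMIs and every single gene in cells with Rrm2.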
